A study of Mus musculus with 6 samples.

Results

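Mitochondrial ribosomal protein genes were examined in red cell precursors of mouse embryos that lack STAT5. A gene was taken as a member if a probe set of the array carried its symbol alone and the symbol began with Mrpl or Mrps and a number. Probe sets that carry a second gene were left out, so Mrpl30 and Mrpl53 are not among them. This gave 76 genes of 18193, each read by the brightest of its probe sets on the log2 scale, averaged over the 6 arrays. Of these, 49 encode proteins of the large subunit, 26 of the small subunit, and Mrps36 is counted apart. The samples were Ter119-positive cells of fetal liver at embryonic day 14.5, sorted by a surface antigen of maturing red cell precursors. The 3 wild type samples and the 3 STAT5 knockout samples were each a pool of 3 to 5 embryos of a single genotype. The labels name no strain, no allele and no other treatment, and do not say how the deletion was made. The values are linear array intensities, called signals here, and differences are given on the log2 scale as knockout minus wild type with a standard error (SE) from limma.

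The mitochondrial ribosome translates the few messages of the mitochondrial genome, all of which encode subunits of the respiratory chain or of the ATP synthase. Its RNAs come from the mitochondrial genome, while all its proteins are encoded in the nucleus, made in the cytoplasm and imported. Red cell precursors need working mitochondria because heme synthesis begins and ends in them, and they discard these organelles at the end of maturation. STAT5A and STAT5B are transcription factors activated through the erythropoietin receptor, and the comparison asks which transcripts differ in cells without them.

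All 4 probe sets of Stat5a and Stat5b read lower in every knockout array than in every wild type array, with differences from -3.77 to -1.29. The labels do not place the deletion relative to them. Median signals of the 6 arrays ranged from 175.6 to 215.8. A signal of 162.5, the 95th percentile of the 27 Bacillus subtilis controls, is called the control level. All 11 red cell precursor markers lay above it and 10 had a negative difference (median -0.14), 3 of them without overlap between genotypes, with a summed signal of 337778 to 345513 in wild type and 278943 to 349694 in knockout. All 15 hepatocyte markers lay above it too and all 15 had a negative difference (median -0.65). Of these, 10 were lower without overlap, where 9.85% of all genes and 10.9% of those above the control level were. Their summed signal was 177446 to 306734 in wild type and 153903 to 167849 in knockout. The part of these markers and those that follow in the results was not tested, and in pools of cells fewer cells of a type and less RNA per cell cannot be told apart. Of the markers of other cell types, 9 of 12 endothelial ones lay above the control level and 10 had a negative difference (summed signal 4018 to 6682 in wild type and 3778 to 4377 in knockout). For macrophages 10 of 11 lay above it and 4 were negative (19891 to 31719 and 26040 to 36175). For megakaryocytes 6 of 8 lay above it and 6 were negative (4130 to 14208 and 3980 to 5276), and for granulocytes 9 of 10 and 9 (5464 to 9365 and 3253 to 9617). Without overlap, 2 endothelial and 2 macrophage markers were lower, and 0 of the megakaryocyte and granulocyte markers differed in this way.

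None of the 76 mitochondrial ribosomal protein genes passed an adjusted p of 0.05 (limma, Benjamini-Hochberg over all genes), where 0.044% of all genes did and 0.0402% of those above the control level. With a mean-variance trend in the fit the count was again 0, where 0.44% of all genes passed. The smallest adjusted p of a member was 0.547 without the trend and 0.263 with it (limma), both for Mrpl40. At an unadjusted p under 0.05 there were 2 members, Mrpl40 with a lower and Mrpl22 with a higher mean in knockout, a share of 2.63% against 8.9% of all genes and 9.18% of those above the control level. By direction, 1.32% of members were higher at this p, where 3.41% of all genes and 4.02% of those above the control level were, and 1.32% were lower, where 5.5% and 5.16% were. With the trend there were 3, as Mrps31 was added, a share of 3.95% against 11% of all genes. The submitters' criterion, an unadjusted ANOVA p under 0.05 with a change over 1.5-fold, was met by 0 members and by 4.81% of all genes.

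The differences of the members were small. They ran from -0.58 for Mrpl40 to 0.44 for Mrpl22, that is from 1.50-fold higher in wild type to 1.36-fold higher in knockout. At its brightest probe set no member differed by over 1.5-fold, where 23.5% of all genes did and 14.9% of the 12442 genes above the control level. The median difference was -0.0049 with 37 members above and 39 below 0, the median of all genes being -0.08. The median size of the difference, whatever its sign, was 0.14 for members and 0.24 for genes above the control level. After median centring of each array the median of the members was 0.11, with 51 members above 0, and after quantile normalization it was -0.06, with 31 above 0, so no direction of the whole group can be given. The median of all genes was 0.03 after median centring and -0.04 after quantile normalization. With quantile normalization it thus rose while that of the members fell. Large subunit members had a median of 0.00041 and small subunit members of -0.06, and both medians changed sign between these scalings. Leaving out 1 array gave -0.06 to 0.06 for the large and -0.20 to 0.04 for the small subunit.

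The absence of calls was set against the precision of 3 arrays a group. The median SE of a member was 0.21, and 0.18 with the trend. A 95% interval of the difference lay wholly within 1.5-fold either way for 19 members, or 42 with the trend, and within 2-fold for 71 members, or 74 with the trend. The 19 and 42 members were 25% and 55.3%. Of all genes 9.23% had such an interval, or 16.4% with the trend, and of those above the control level 13.2%, or 24% with the trend. The members outside these counts are not shown to be alike in the 2 genotypes. For those inside, the intervals cover the brightest probe set on the deposited scale only. Among the 19, another probe set was lower without overlap for Mrpl15 (-0.52), Mrpl51 (-0.93) and Mrps14 (-0.24), and higher for Mrps23 (0.39). The widest intervals belonged to Mrps27 and Mrpl52, which were singled out after their values were seen.

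**Figure D1:**
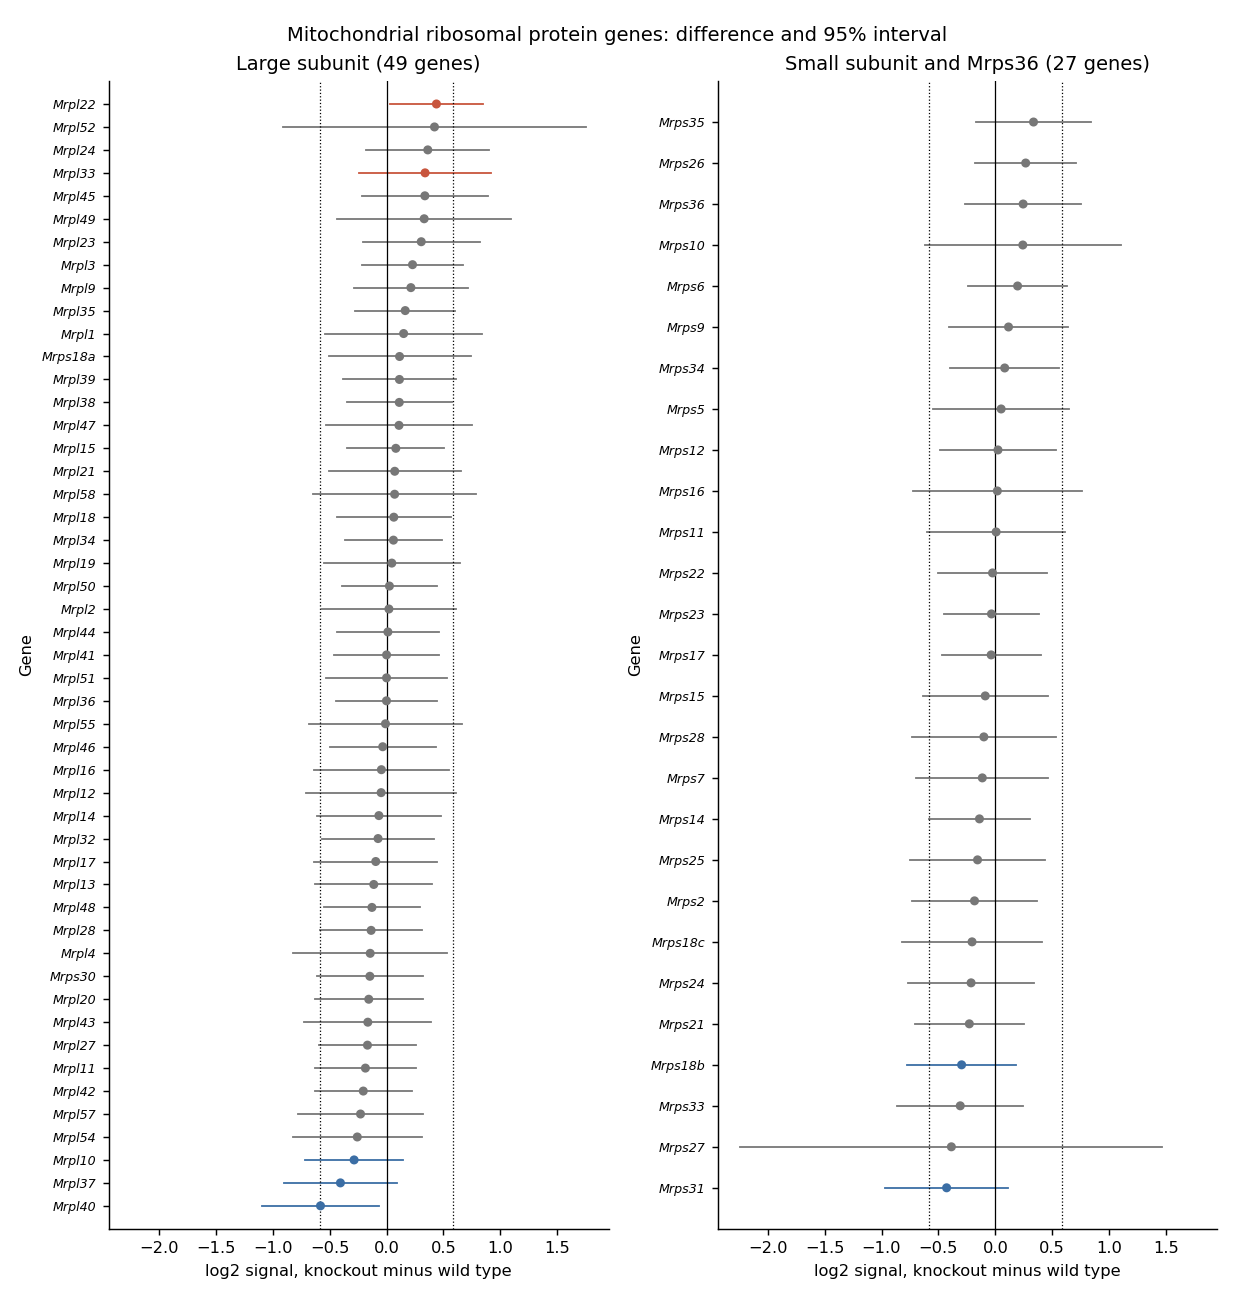
Difference in log2 signal, knockout minus wild type, for 49 large subunit genes (left) and for 26 small subunit genes with Mrps36 (right); points are limma's estimates, bars 95% intervals, dotted lines mark 1.5-fold, and blue or red marks genes whose knockout arrays all lay below or above all wild type arrays. Points lie between -0.58 and 0.44, and of all members, the intervals of Mrpl40 and Mrpl22 alone leave out 0.

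In 7 members the arrays of the 2 genotypes did not overlap, a share of 9.21% where 16.9% of all genes did so and 20% of those above the control level. Knockout arrays were lower for Mrpl40, Mrps31, Mrpl37, Mrps18b and Mrpl10 and higher for Mrpl22 and Mrpl33. The lower members made up 6.58%, where 9.85% of all genes and 10.9% of those above the control level were lower in this way. The higher members made up 2.63%, where 7.02% and 9.15% were higher. This split depended on the scaling: 5 lower and 2 higher became 9 lower and 2 higher after quantile normalization, and 0 lower and 6 higher after median centring. Only Mrpl22 and Mrpl33 were free of overlap under all 3 scalings.

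Promoter sequences from RefSeq (build GRCm38.p6, 250 bases before to 50 after the start) were found for 67 of the 76 members. Printed here are those of Mrpl40, the member with the lowest difference, of Mrpl22, Mrpl10 and Mrps18b, the 3 members without overlap that hold an NRF1 match, and of Mrps11, which starts back to back with another member. Capitals mark matches on either strand to the letters CGCATGCG (NRF1), CCGGAAG (ETS factors such as GABPA), AAGATGGCG (YY1) or TTCNNNGAA (the STAT5 element). NRF1, GABPA and YY1 are known as activators of nuclear genes for mitochondrial proteins.
Mrpl40 (chr16:18876588-18876887, minus strand): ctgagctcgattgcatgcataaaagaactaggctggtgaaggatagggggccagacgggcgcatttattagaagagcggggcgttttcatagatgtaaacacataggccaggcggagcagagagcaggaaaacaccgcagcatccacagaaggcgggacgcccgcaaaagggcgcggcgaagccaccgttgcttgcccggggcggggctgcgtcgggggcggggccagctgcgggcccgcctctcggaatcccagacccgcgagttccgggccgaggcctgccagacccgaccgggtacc
Mrpl22 (chr11:58171414-58171713, plus strand): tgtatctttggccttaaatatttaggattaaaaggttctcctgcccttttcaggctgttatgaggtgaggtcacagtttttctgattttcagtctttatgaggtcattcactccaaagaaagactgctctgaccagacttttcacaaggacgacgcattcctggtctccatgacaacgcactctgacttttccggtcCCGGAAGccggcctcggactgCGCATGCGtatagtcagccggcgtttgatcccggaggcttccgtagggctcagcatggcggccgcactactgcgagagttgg
Mrpl10 (chr11:97041332-97041631, plus strand): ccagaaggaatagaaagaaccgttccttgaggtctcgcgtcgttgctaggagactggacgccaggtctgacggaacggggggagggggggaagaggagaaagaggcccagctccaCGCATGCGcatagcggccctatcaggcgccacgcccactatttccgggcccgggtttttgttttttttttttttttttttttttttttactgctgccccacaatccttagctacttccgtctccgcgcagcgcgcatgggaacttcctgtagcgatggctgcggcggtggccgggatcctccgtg
Mrps18b (chr17:35916391-35916690, minus strand): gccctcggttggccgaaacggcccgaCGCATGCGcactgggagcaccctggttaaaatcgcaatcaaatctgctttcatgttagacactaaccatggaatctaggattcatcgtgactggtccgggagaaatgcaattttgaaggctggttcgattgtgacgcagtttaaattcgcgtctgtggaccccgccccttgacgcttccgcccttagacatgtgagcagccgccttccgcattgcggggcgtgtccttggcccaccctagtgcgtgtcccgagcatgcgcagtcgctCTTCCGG
Mrps11 (chr7:78782881-78783180, plus strand): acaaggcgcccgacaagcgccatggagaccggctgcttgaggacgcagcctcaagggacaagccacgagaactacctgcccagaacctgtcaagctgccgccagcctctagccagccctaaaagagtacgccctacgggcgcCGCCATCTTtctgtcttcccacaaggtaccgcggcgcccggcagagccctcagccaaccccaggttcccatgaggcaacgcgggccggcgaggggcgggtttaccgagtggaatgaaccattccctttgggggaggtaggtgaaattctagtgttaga
The Mrpl40 window held none of the 4 motifs, those of Mrpl22 and Mrps18b an NRF1 and an ETS match, that of Mrpl10 an NRF1 match, and that of Mrps11 a YY1 match.

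Over the 67 member promoters the ETS letters were present in 24, or 35.8%, against 9.12% of 27025 promoters in the table and 13.8% of the 14452 that belong to measured genes. The YY1 letters were present in 8 members, or 11.9% against 2.33% of measured genes, and the NRF1 letters in 7, or 10.4% against 3%. The STAT5 letters were present in 5 member promoters, or 7.46%, and in 7.29% of those of measured genes. Base composition was close, with a median GC content of 58.3% in members and 58.7% in measured genes. The median difference between genotypes was 0.0089 for the 24 members with the ETS letters and -0.03 for the 43 without. It was -0.10 for the 8 with the YY1 letters and -0.0093 for the 59 without, and -0.07 for the 7 with the NRF1 letters and -0.0049 for the 60 without. For the 5 with the STAT5 letters, Mrpl34, Mrpl42, Mrpl50, Mrps22 and Mrps25, it was -0.02. Groups without overlap were found in 0 of these 5, where 9.21% of all members and 16.9% of all genes had them. They were found in 3 of the 24 with the ETS letters, 1 of the 8 with YY1 and 3 of the 7 with NRF1. A match describes the letters in this window only, and none of these shares was tested.

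Mrpl40, a large subunit protein without a bacterial relative whose gene lies in the region deleted in DiGeorge syndrome, had the lowest difference. Its signals were 1231.5, 1202.4 and 1371.4 in wild type and 1013.6, 873.8 and 686.0 in knockout. The 3 knockout pools differed more among themselves than the wild type pools, and the nearest arrays of the 2 genotypes were 0.25 apart in log2 signal. The difference was -0.58 (SE 0.21, adjusted p = 0.547, limma). Without 1 array it ran from -0.43 to -0.71, and it kept its sign in all 17 alternative settings. Several of these change only the variance estimate or the probe set choice, so they could not move this difference. The gene has a single probe set, and its promoter is the first of those printed.

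Mrpl22, a protein of the large subunit that lines the tunnel through which the new chain leaves, had the highest difference. It read 768.8, 796.2 and 896.3 in wild type and 1152.8, 1059.2 and 1118.1 in knockout. These knockout arrays were close to each other and 0.24 above the nearest wild type array. The difference was 0.44 (SE 0.17, adjusted p = 0.557, limma), and it stayed between 0.39 and 0.55 in the 17 alternative settings. Mrpl22 too has a single probe set, so several of these settings could not move that difference. Mrpl33, a small protein of the large subunit, read 411.4, 646.7 and 638.5 in wild type and 725.6, 688.6 and 687.5 in knockout. The groups were apart by only 0.09, and the low mean of wild type came from replicate 1. The difference of 0.34 (SE 0.24) became 0.12 without that array, and the other Mrpl33 probe set differed by -0.52 with overlapping groups.

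Mrpl10 anchors the flexible stalk that recruits translation factors. Its signals were 1934.0, 1653.1 and 1602.9 in wild type and 1432.0, 1509.3 and 1310.8 in knockout. The knockout arrays lay below by a gap of 0.09, with a difference of -0.29 (SE 0.18, adjusted p = 0.649, limma). Mrpl12, which Mrpl10 holds in the stalk, read 1084.5, 754.8 and 742.2 in wild type and 953.5, 621.6 and 928.8 in knockout. These groups overlapped throughout, and the difference was -0.05 (SE 0.27), which turned positive after median centring (0.07), without wild type replicate 1 (0.13) and without knockout replicate 2 (0.15). The mitochondria-specific gene Mrpl37 read 532.0, 554.4 and 577.3 in wild type and 518.3, 391.4 and 361.4 in knockout. Knockout replicate 1 lay only 0.04 below the nearest wild type array, and the difference of -0.41 (SE 0.20) became -0.56 without it.

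**Figure D2:**
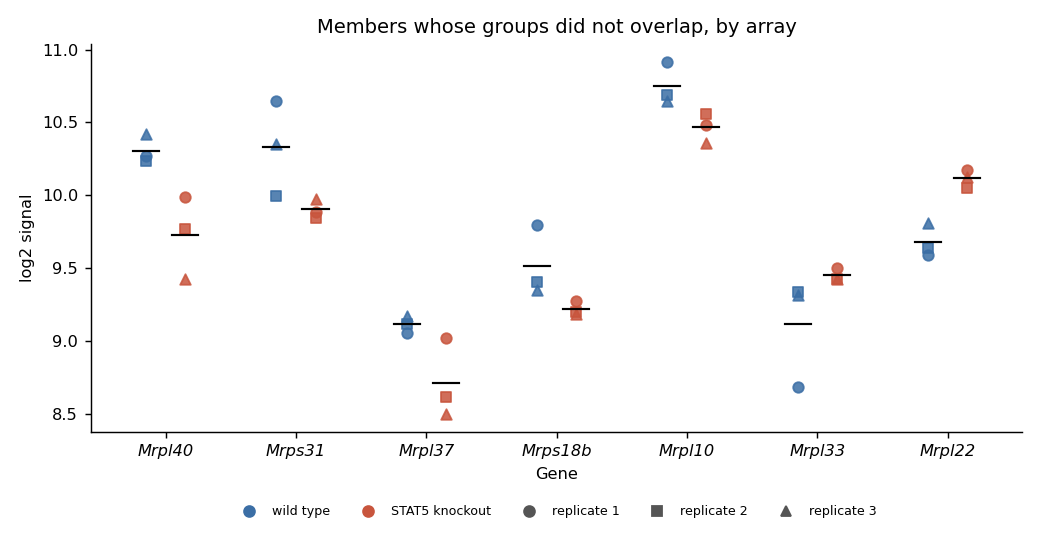
log2 signal of the 7 members whose groups did not overlap, in wild type (blue) and STAT5 knockout (red) pools; markers stand for replicates 1 to 3 and black lines for group means. The gap between genotypes was widest for Mrpl40 (0.25) and Mrpl22 (0.24) and 0.02 for Mrps31.

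Among the other large subunit genes chosen by name, Mrpl3, a core protein near the site of peptide bond formation, read 1289.4, 1052.3 and 1094.8 in wild type and 1414.9, 1213.3 and 1390.8 in knockout. The groups overlapped, and the difference was 0.23 (SE 0.18). Mrpl44, which has the fold of an RNase III enzyme, differed by 0.012 (SE 0.18; -0.07 to 0.08 without 1 array), with signals of 1511.5, 1470.4 and 1248.2 against 1532.0, 1449.0 and 1281.2. This was nearly the same range in both genotypes, and the sign turned in 5 of 17 alternative settings, quantile normalization among them. Mrpl45, which sits at the tunnel exit and contacts the inner membrane, differed by 0.34 (SE 0.23). It read 789.2, 523.9 and 723.8 in wild type and 852.3, 756.5 and 935.1 in knockout. The groups overlapped, and the difference of Mrpl45 became 0.16 without wild type replicate 2, its lowest array. Mrps30 carries a small subunit symbol but its protein is part of the large subunit in mammals, and it differed by -0.15 (SE 0.19) with overlapping groups. Without wild type replicate 2 this was -0.24, without wild type replicate 1 -0.08 and without knockout replicate 2 -0.06.

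In the small subunit, Mrps31 read 1601.8, 1021.4 and 1307.6 in wild type and 946.6, 920.6 and 1007.8 in knockout. Every knockout array was lower, but the gap to wild type replicate 2 was 0.02. The difference was -0.43 (SE 0.22, adjusted p = 0.612, limma), or -0.60 without that array and -0.27 without wild type replicate 1. Its second probe set differed by -0.77 with overlapping groups. Mrps12, the protein at the decoding centre, read 1523.8, 1083.4 and 1431.3 in wild type and 1429.0, 1231.9 and 1408.4 in knockout. The knockout arrays fell inside the wild type range, and the difference of 0.02 (SE 0.21) turned negative in 5 of 16 alternative settings, among them quantile normalization and leaving out wild type replicate 2 (-0.13), knockout replicate 1 (-0.02) or knockout replicate 3 (-0.0056). Without wild type replicate 1 it was 0.12, without wild type replicate 3 0.08 and without knockout replicate 2 0.09.

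The mouse has 3 genes related to bacterial protein S18, and their products take different places in the ribosome. Mrps18c, which holds the place of the bacterial protein in the small subunit, read 2183.9, 1806.0 and 2210.3 in wild type and 1533.3, 1530.1 and 2427.4 in knockout. Knockout replicates 1 and 2 were the lowest and replicate 3 the highest of the 6 arrays. The difference was -0.20 (SE 0.25), -0.43 without knockout replicate 3, and -0.09 without knockout replicate 1 or without knockout replicate 2. Mrps18b, at another place of the small subunit, read 888.8, 677.5 and 652.0 in wild type and 618.6, 588.7 and 581.9 in knockout. All knockout arrays were lower, by a gap of 0.08, and the difference was -0.30 (SE 0.20), or -0.16 without wild type replicate 1. Mrps18a, which is part of the large subunit, differed by 0.11 (SE 0.25) by -0.11 without wild type replicate 2, and by 0.27 without wild type replicate 3. None of the 3 passed the threshold (adjusted p = 0.814, 0.665 and 0.898, limma), and differences between them were not tested.

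Mrps36 was named as a ribosomal protein but is now assigned to the oxoglutarate dehydrogenase complex of the citric acid cycle. It read 1833.1, 1573.0 and 2335.8 in wild type and 2330.3, 2256.0 and 2128.4 in knockout, a difference of 0.24 (SE 0.21). Without wild type replicate 2 it was 0.11 and without wild type replicate 3 0.40. The groups overlapped because wild type replicate 3 was the highest array. By a list of counterparts of bacterial ribosomal proteins, the 44 such members had a median difference of 0.0032 and the 31 others, in which Mrps28 was left, of -0.03. Mrps18a and Mrps18b, though related to bacterial S18, were also counted among the 31. Leaving out 1 array moved these medians to between -0.13 and 0.08 and to between -0.10 and -0.0042. They were 0.12 and 0.08 after median centring and -0.03 and -0.07 after quantile normalization. The difference between the 2 classes was not tested.

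Some genes were measured with more than 1 probe set, which bears on how firmly a difference can be read. Of 156 member probe sets 135 exceeded the control level in 1 or both genotypes, and 35 members had several such probe sets. In 21 of these 35 the probe sets gave both signs. Dimmer probe sets went beyond 1.5-fold for some members, as for Mrpl51 (-0.93 without overlap) and Mrpl58 (1.25 with overlap). Each of these had a group mean under the control level. Mrpl35, a core large subunit protein, was the only member whose probe sets were opposed without overlap of the groups. Its brightest probe set differed by 0.16 (SE 0.18) with overlapping groups, 0.08 without wild type replicate 2 and 0.26 without wild type replicate 1. A dimmer one read 391.0, 454.0 and 403.6 in wild type and 161.9, 285.8 and 263.1 in knockout. There every knockout array was lower, a difference of -0.85. The third probe set read 135.4, 42.9 and 113.5 in wild type, all under the control level, and 170.2, 225.3 and 140.8 in knockout. Every knockout array was higher there, and knockout replicate 3 too lay under the control level.

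Mrpl52, a mitochondria-specific large subunit protein, varied most among the large subunit genes. Its brightest probe set read 691.4, 2519.7 and 1274.2 in wild type and 1091.4, 2261.4 and 2159.4 in knockout. Arrays of a single genotype differed by more than the genotypes did (0.42, SE 0.54). Another probe set of Mrpl52 read 513.9, 516.7 and 449.2 in wild type and 921.8, 656.5 and 1051.1 in knockout. Here the groups did not overlap and the difference was 0.80, with an adjusted p of 0.564 over all probe sets (limma). A further Mrpl52 probe set differed by 0.74, again without overlap, so the probe set chosen for brightness was the least steady of these 3. Mrps27, an RNA-binding protein of the small subunit, read 100.4, 332.9 and 133.9 in wild type and 351.6, 81.2 and 70.2 in knockout. It was the only member with a group mean under the control level, and a single array in each genotype lay above that level.

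Across arrays the members varied in a way that did not follow genotype. Measured from the wild type mean of each gene, the median member deviated by 0.14, -0.14 and 0.05 in wild type replicates 1, 2 and 3, and by 0.02, -0.11 and 0.00032 in knockout replicates 1, 2 and 3. Wild type replicate 2 was the lowest of the 6 arrays for 33 of the 76 members, or 43.4%, where it was lowest for 20.8% of genes above the control level. The same array was lowest for 67.3% of the cytoplasmic ribosomal protein genes described below and for 18.3% of the respiratory chain and ATP synthase genes, so a low value there was not particular to the mitochondrial ribosome. It was the highest array for 28.9% of genes above the control level and for 3 members. Wild type replicate 1 was the highest array for 28 members, or 36.8%, where it was highest for 16.2% of genes above the control level. It was highest for 40.2% of the respiratory chain and ATP synthase genes and for 6.12% of the cytoplasmic ribosomal protein genes. The median SD among wild type pools was 0.24 for members, and 0.15 among knockout pools. Without wild type replicate 2 the median difference of the members was -0.11, and that of all genes -0.05, and no member was called.

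**Figure D3:**
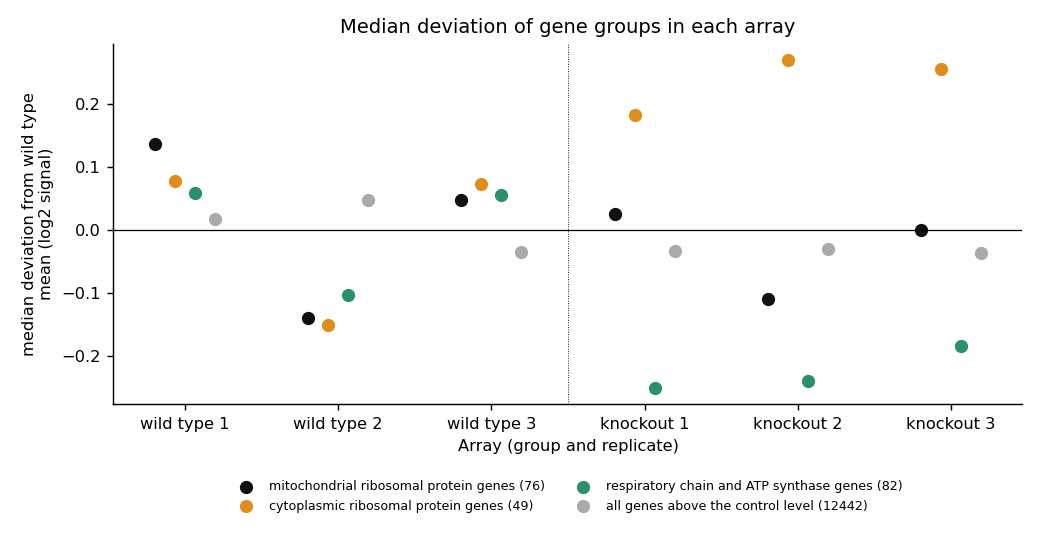
Median deviation from each gene's wild type mean, in log2 signal, for 76 mitochondrial ribosomal protein genes (black), 49 cytoplasmic ribosomal protein genes (orange), 82 respiratory chain and ATP synthase genes (green) and all 12442 genes above the control level (grey), in each array. The black points are lowest in wild type replicate 2 (-0.14) and knockout replicate 2 (-0.11), so the genotypes are mixed.

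The medians of 2 related gene groups lay on either side of that of the mitochondrial ribosome. The 49 cytoplasmic ribosomal protein genes, paralogs included, had a median difference of 0.22, with 40 above 0. The 82 genes of the respiratory chain and ATP synthase had a median of -0.22, with 65 below 0. None of either group passed an adjusted p of 0.05 (limma). At an unadjusted p under 0.05 the first group had 6 of 49 genes, all higher, and the second 9 of 82, of which 2 were higher and 7 lower, where 8.9% of all genes and 9.18% of those above the control level reached it. In the first group 22 genes were higher and 4 lower without overlap, and in the second 3 were higher and 32 lower. Of all genes 7.02% were higher and 9.85% lower in this way, and of those above the control level 9.15% and 10.9%. The smallest p belonged to Rpl14 (0.91) and Rps4l (1.27) in the first group and to Cox7a2l (0.62), whose protein helps to assemble supercomplexes, and Cox7a2 (-0.52) in the second. The medians were 0.33 and -0.10 after median centring and 0.22 and -0.21 after quantile normalization, with the mitochondrial ribosome between them each time. Lists taken by symbol alone, which also hold S6 kinases, a binding protein, a pseudogene and complex I assembly factors, had medians of 0.20 over 57 genes and -0.20 over 90. These medians are descriptions, and the differences between the groups were not tested.

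**Figure D4:**
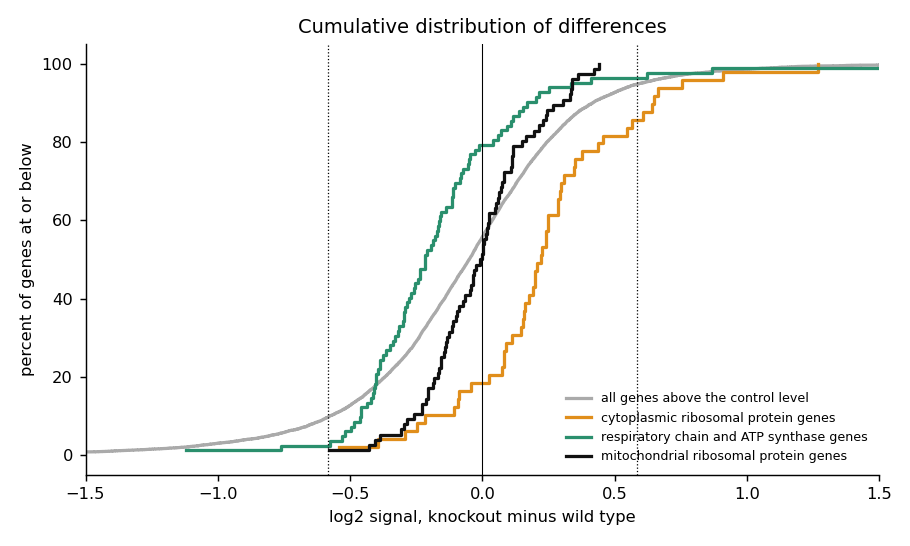
Percent of genes at or below each difference in log2 signal, knockout minus wild type, for the same 4 groups and colours, with dotted lines at 1.5-fold. The black curve of the mitochondrial ribosomal protein genes crosses the middle near 0 and stays within the dotted lines, between the green curve (median -0.22) and the orange curve (median 0.22) at their middle.

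Other genes of mitochondrial translation were taken from lists of known factors, and none of them passed an adjusted p of 0.05 (limma). The 4 measured mitochondrial ribosome subunits with other symbols, Dap3, Gadd45gip1, Chchd1 and Ptcd3, all had positive differences, with a median of 0.26, or 0.05 without wild type replicate 2 and 0.43 without wild type replicate 3. Ptcd3, a small subunit protein that binds RNA, differed by 0.35 (SE 0.20) without overlap, and Gadd45gip1, a large subunit protein, by 0.29 (SE 0.24). The 13 translation factors had a median of 0.11, and -0.10 without knockout replicate 1. Mtfmt, which formylates the initiator tRNA, differed by 0.64 (SE 0.27) from a wild type mean under the control level, and the elongation factor gene Tufm by 0.46 (SE 0.28).

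The 24 assembly and rRNA modification factors had a median of 0.04 (0.0019 to 0.11 without 1 array). Of these, 1, Rpusd4, had an unadjusted p under 0.05, where 8.9% of all genes and 9.18% of those above the control level did. Rpusd4, a pseudouridine synthase of the mitochondrial rRNA, differed by 1.71 (SE 0.51, adjusted p = 0.488, limma), from a wild type mean of 6.22 under the control level of 7.34. Tfb1m, which methylates the small subunit rRNA, differed by 0.46 (SE 0.20) without overlap. Among 14 genes of mitochondrial DNA and RNA maintenance, with a median of 0.15, the related transcription factor gene Tfb2m differed by 0.52 (SE 0.21) and the RNA-degrading enzyme gene Pnpt1 by 0.30 (SE 0.22). The 11 regulators of mitochondrial biogenesis had a median of 0.02 (-0.0036 to 0.08 without 1 array). Among them Myc differed by 1.10 (SE 0.23, adjusted p = 0.346, limma). It was the only one of the 11 at an unadjusted p under 0.05, where 8.9% of all genes were. Myc alone of the 11 met the submitters' criterion, where 4.81% of all genes did. With the trend the smallest adjusted p of the 11 was 0.061 (limma). The genes for the factors whose letters were searched in the promoters differed by 0.16 for Nrf1 (SE 0.19), 0.03 for Gabpa (SE 0.19) and 0.02 for Yy1 (SE 0.18), and Gabpb1, the partner of GABPA, by 0.30 (SE 0.29).

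Many members start back to back with another gene. By the RefSeq starts, 25 of the 67 members with a promoter, or 37.3%, had a gene on the opposite strand, facing away, with a start at most 1000 bases from their own, against 16.2% of measured genes. The partners had a median difference of 0.04, with 9 below and 16 above 0. Several are themselves mitochondrial: Mrpl43 is paired with Twnk, the helicase of mitochondrial DNA (-0.16 and 0.21), Mrps12 with Sars2, a mitochondrial seryl-tRNA synthetase gene (0.02 and 0.05), and Mrpl47 with the complex I gene Ndufb5 (0.11 and 0.33). Mrps11 and Mrpl46 are both members and start back to back. The YY1 match printed for Mrps11 is not in the window of Mrpl46, which held none of the 4 motifs. They differed by 0.0069 (SE 0.25) and -0.03 (SE 0.19). Mrpl40 is paired with Hira, which encodes a histone chaperone and differed by -0.39 (SE 0.16, adjusted p = 0.561, limma) without overlap at its brightest probe set. That of Hira became 0.92 when probe sets with names ending in _x_at, _s_at or _a_at were left out, so a shared direction of the pair rests on the probe set chosen.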

How the data were processed

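Red cell precursors of mouse fetal liver were measured on Affymetrix Mouse430_2 arrays, 1 per pool. The deposited values are linear intensity per probe set. RMA and Partek are listed, with no version, per the submitters' processing notes. The values are linear, however, and all arrays share a 2% trimmed mean of 500. By that measure they are on a common scale, but how the probe set values were computed stays unknown. The array number limits the precision.

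From these values log2 was taken with no pseudocount. Of 45037 probe sets without controls, 34945 name 1 gene, 932 several and 9160 none. The probe set with the highest mean log2 value stood for each gene. Knockout was compared with wild type by limma 3.58.1 in R 4.3.3 (lmFit and eBayes, without a trend, and with a trend as an alternative), with Benjamini-Hochberg adjustment over 18193 genes. The fit was tested on simulated data. A single value of 3 against 3 arrays cannot go below an exact permutation p of 0.1. Nothing says that the pools come from separate litters, so p-values measure the spread between these samples.

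Named members are those without overlap between genotypes, 10 chosen by name (Mrps18b is in both), and those whose probe sets disagree without overlap; in other lists, the 2 genes of smallest p. The comparison lists, taken by symbol, were cleared of S6 kinases, a binding protein, a pseudogene and complex I assembly factors after the data were seen. Cox7a2l was kept. Mrps27, Mrpl52, Nrf1, Gabpa, Yy1, Dap3, Chchd1 and the partner genes were chosen after their values were seen. The members and lists were chosen with earlier results of these data known. All 76 members were matched to RefSeq by Entrez ID, with 0 symbols changed. Alternatives were the trend, the methods' test, scaling, array weights, the replicate block, a filter, a pseudocount of 32, the probe set rule and leaving out each array.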

Additional observations from a re-analysis of the deposited data

How the results depend on the processing

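No member was called in any of the 17 alternatives, in which the smallest adjusted p of a member ran from 0.2625 to 0.7531 (limma or the methods' test), and at an unadjusted p under 0.05 there were 0 to 4 members. Over all genes the 8 calls became 80 with the trend, 66 with a robust trend, 4 with the methods' test, 15 with quantile normalization, 3 with median centring, 20 with dim probe sets left out, 15 with array weights and 3 without probe sets ending in _x_at, _s_at or _a_at. Leaving out 1 array gave 0 to 0 calls over all genes. The members' median difference was 0.11 with median centring and -0.11 to 0.05 without 1 array. The submitters' criterion was met by 1 member with quantile normalization (Mrpl40, -0.62), by 2 without the named probe set types (Mrpl35, -0.85, and Mrpl52, 0.80), and by 0 to 1 without 1 array (Mrps31, -0.60, without wild type replicate 2, and Mrpl40, -0.71, without knockout replicate 1). The cause of these shifts was not tested.

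With the replicate number as a block, 0 genes and 0 members were called. The members' median was again -0.0049, as the block cannot move a difference with 1 array of each genotype per number. Over all genes, arrays of the same number correlated by 0.023, 0.0414 and 0.0372 in their deviations from the group means. Over genes above the control level they correlated by 0.0741, 0.103 and 0.0751. In both sets each array correlated best with its own number. The correlations were low, so the numbers are not taken to pair the samples, but a pairing is not excluded. Over the members these values were -0.137, 0.235 and 0.339, and wild type replicate 1 correlated best with knockout replicate 3 (0.251). Low signals limit Mrps27, whose knockout mean lay under the control level.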
